A study of Mus musculus with 17 samples.

Results

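The NF-kB pathway and feedback genes described here are 41 listed genes of the mouse: the subunits of the transcription factor NF-kB, its inhibitors, the kinases and adaptors upstream of it, and targets that feed back on it. They were taken by gene symbol from a table of 55401 Ensembl gene identifiers. Each of the 41 matched 1 identifier, and all of them passed the low-count filter in every comparison. They were measured by RNA-seq in primary bone marrow-derived macrophages, cells grown out of mouse bone marrow, in 17 libraries. Libraries of the strain C57BL/6J formed 4 groups: a control group (n = 3), whose treatment is not described further in the labels, cells in medium conditioned by B16F10 mouse melanoma cells (n = 3), and cells in that medium with KCl (n = 3) or with NaCl (n = 2). Treatment lasted 6 h, and each added salt was at a final 40 mM. Another 2 groups were given conditioned medium with KCl labelled isotonic, and how it was made isotonic is not stated in the labels. Their strains were Kcnj2f/f (n = 3, floxed cells), in which the potassium channel gene Kcnj2 can be excised, and Lyz2-Cre-Kcnj2f/f (n = 3, knockout cells), in which Cre recombinase is driven from the Lyz2 locus of myeloid cells. Both isotonic groups carry the floxed allele, and the label of the floxed cells names no Cre. The labels do not say that replicates are separate mice or cultures, and the spread behind each p-value may therefore be technical.

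NF-kB is a dimer of Rel-family proteins that is held in the cytoplasm by IkB proteins. Signals from Toll-like, interleukin-1 and TNF receptors pass through MyD88, IRAK and TRAF proteins to the IkB kinase complex, which marks IkB for degradation and frees NF-kB to enter the nucleus. NF-kB then induces many of its own regulators, among them the IkB genes and the ubiquitin-editing enzyme A20 (Tnfaip3), so the RNA of these genes is a common readout of the pathway in macrophages stimulated with bacterial products or cytokines.

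RefSeq promoter windows on GRCm38.p6, which run from 250 bases before to 50 bases after an annotated start site, were given for 34 of the 41 genes, in 49 windows. They were read on both strands for the kappaB consensus, the binding pattern of NF-kB, and for TonE, the binding pattern of the osmotic-stress factor NFAT5. A palindromic match counts on each strand, and matches to the patterns may overlap one another. The kappaB consensus was found in 22 of the 49 windows (44.9%, 16 genes) and in 8.46% of all 32851 windows of the table. TonE was found in 3 windows (6.12%), of Ikbkg, Nfkbia and Tifa, against 4.96% of all windows. A match is a run of letters and not a measured binding site. The stretches below lie upstream of the start sites of 7 genes that carry a kappaB match and rose in conditioned medium, and of Tifab, the gene that fell in conditioned medium and again with each salt. All are written 5′ to 3′ on the strand of the gene, with the kappaB matches in capitals.
Nfkbia (minus strand, chr12:55492648-55492767): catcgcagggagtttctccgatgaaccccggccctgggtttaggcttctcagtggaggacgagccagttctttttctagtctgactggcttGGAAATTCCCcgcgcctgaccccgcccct
Tnfaip3 (minus strand, chr10:19015411-19015545): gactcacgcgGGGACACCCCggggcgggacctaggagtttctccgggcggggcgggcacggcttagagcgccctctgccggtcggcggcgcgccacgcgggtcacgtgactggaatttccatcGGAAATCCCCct
Tnip1 (minus strand, chr11:54962941-54963060): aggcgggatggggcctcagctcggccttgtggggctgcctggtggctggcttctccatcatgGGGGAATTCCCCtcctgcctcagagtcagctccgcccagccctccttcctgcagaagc
Rel (minus strand, chr11:23770971-23771089): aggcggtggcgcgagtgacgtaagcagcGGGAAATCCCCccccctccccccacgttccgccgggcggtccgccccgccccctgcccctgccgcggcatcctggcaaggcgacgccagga
Nfkbie (plus strand, chr17:45555580-45555699): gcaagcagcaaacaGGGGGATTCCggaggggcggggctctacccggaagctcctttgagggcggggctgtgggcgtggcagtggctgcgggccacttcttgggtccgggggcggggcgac
Ier3 (plus strand, chr17:35821593-35821682): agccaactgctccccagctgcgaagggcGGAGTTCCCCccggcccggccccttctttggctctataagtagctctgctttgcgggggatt
Sod2 (plus strand, chr17:13007719-13007814): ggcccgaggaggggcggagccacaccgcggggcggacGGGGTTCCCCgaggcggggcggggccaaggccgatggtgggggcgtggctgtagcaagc
Tifab (minus strand, chr13:56178886-56179005): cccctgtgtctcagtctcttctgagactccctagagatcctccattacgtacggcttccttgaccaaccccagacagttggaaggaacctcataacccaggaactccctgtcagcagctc

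In Nfkbia, which encodes the inhibitor IkB-alpha, the kappaB match lay 29 to 20 bases before the start site, and a TonE match on the other strand covered the same letters. Matches to kappaB in Tnfaip3 lay 125 to 116 and 12 to 3 bases before the start site, and the capital run of Tnip1 holds several overlapping matches. Tifab had a match to neither pattern in its window.

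Library totals ran from 13503869 to 19391623 counts. Levels below are CPM, counts relative to the library total, scaled by TMM over all 17 libraries, and an adjusted p is the Benjamini-Hochberg value of the quasi-likelihood test of edgeR over all genes tested, called past 0.05. Replicates of KCl and of the floxed cells differed most from one another: over the 41 genes the median coefficient of variation was 11.3% with KCl and 12.5% in floxed cells, against 5.11% in control, 3.51% in conditioned medium, 2.38% with NaCl and 5.41% in knockout cells. A length slope was taken per library, from each gene's log2 deviation from its mean over all 17 libraries against log2 exon length. It is thus relative to the other libraries. The slope ran from -0.09 to 0 with KCl, from -0.13 to 0.09 in floxed and from -0.12 to -0.01 in knockout cells. In the other 3 groups it ran from 0.03 to 0.10. A set of 10 macrophage markers summed to between 31400 and 35700 CPM in every library but those of the knockout, with 20100 to 20900 CPM. Most of that sum was Lyz2, at group means of 21000 to 22500 CPM outside the knockout and 7650 CPM in it. The others did not move together. Adgre1, Cd14 and Cd68 were higher in conditioned medium than in control (Adgre1 2350 and 955 CPM). Csf1r, Itgam, Fcgr1, Mertk, C1qa and Ctss were lower there (Fcgr1 31.8 and 91.1 CPM). Of 8 melanoma markers, 7 were under 1 CPM in each group and 3 were at 0 in all libraries. The markers of lymphocytes summed to under 1 CPM in every library, and those of neutrophils to between 6.82 and 30.2 CPM.

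Conditioned medium was compared with control to describe how the RNA of the pathway stood in macrophages exposed to tumour-cell medium. Of the 41 genes, 35 were higher, 1 was lower and 5 did not pass the test, where 53.5% of all 14519 genes tested were called, 27.2% of them higher and 26.4% lower. With total counts in place of TMM factors 31 were higher and 5 lower. The median log2 fold change was 1.57 over the 41 genes and -0.04 over all genes tested, and total counts move the latter to -0.37. Here 39 of the 41 had libraries that did not overlap between the groups, against 68.1% of all genes. In bulk RNA a change in the number of cells of a type and a change in the RNA per cell cannot be told apart. The 9 neutrophil markers summed to 6.82 to 8.22 CPM in control and 17.9 to 22.1 CPM in conditioned medium, with 1 of them at 0 throughout. Most of that rise was S100a8 (4.95 ± 0.405 and 16.1 ± 1.61 CPM), and Camp, S100a9 and Mpo were higher by less. Ltf, Elane, Cxcr2 and Ly6g were lower in conditioned medium, and each of these stayed under 1 CPM. The 8 melanoma markers summed to 67.4 to 72.4 and 179 to 185 CPM, nearly all of it Mitf, a factor that macrophages express too (69.9 ± 3.23 and 181 ± 3.24 CPM). The part of these markers in the results was not tested.

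All 5 subunits rose. Nfkb2, the precursor of p52, was at 59.1, 57.7 and 61.9 CPM in control and at 306, 310 and 322 CPM in conditioned medium, a log2 fold change of 2.38 (SE 0.10, edgeR adjusted p = 2.1e-10). Nfkb1, the precursor of p50, was at 98.2, 95.3 and 102 CPM in control and at 346, 341 and 356 CPM in conditioned medium (log2 fold change 1.81, SE 0.07, edgeR adjusted p = 1.5e-10). The libraries of the groups were far apart for both precursors. Rel, the subunit c-Rel, rose from 30.5 ± 1.96 to 108 ± 5.40 CPM (SD, n = 3 and 3, log2 fold change 1.82). Relb, the partner of p52, rose from 27.5 ± 1.42 to 80.4 ± 1.31 CPM (log2 fold change 1.54). Rela, which encodes p65, had the smallest rise of the 5, from 77.1, 73.8 and 85 CPM to 153, 160 and 156 CPM (log2 fold change 0.98, SE 0.08, edgeR adjusted p = 3.4e-07).

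Among the 6 IkB proteins, 5 rose. Nfkbia was at 96.1, 98.6 and 89.8 CPM in control and at 932, 936 and 894 CPM in conditioned medium (log2 fold change 3.27, SE 0.10, edgeR adjusted p = 5e-12). Nfkbiz, the nuclear IkB-zeta that acts as a co-activator, rose from 34.7, 31.7 and 26.4 CPM to 497, 505 and 522 CPM (log2 fold change 4.03, SE 0.11, edgeR adjusted p = 3.8e-12). These were the largest changes of the group, and no control library came near a treated one. Nfkbie, Nfkbib and Bcl3 rose by log2 fold changes of 2.10, 1.89 and 1.57. Nfkbid, another nuclear IkB, was at 18.5 ± 2.20 CPM in control and 15.8 ± 0.189 CPM in conditioned medium (log2 fold change -0.24, SE 0.10, edgeR adjusted p = 0.0571). It stood apart from the other 5. Its small difference was called lower with total counts (log2 fold change -0.58) and with a stricter low-count filter (-0.28). Nfkbid was also called lower with only these 6 libraries in the fit (-0.24) and with the length slope (-0.23). Without control replicate 2 it was called lower as well (log2 fold change -0.34, edgeR adjusted p = 0.0131).

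The ubiquitin-editing and feedback genes held the largest rise of all 41. Tnfaip3, which encodes A20, was at 23.1, 19.0 and 19.9 CPM in control and at 408, 416 and 429 CPM in conditioned medium (log2 fold change 4.33, SE 0.11, edgeR adjusted p = 1.9e-12). Its binding partners were uneven. Tnip1 and Tnip3, which encode the A20-binding proteins ABIN-1 and ABIN-3, rose by 2.61 and 1.84 on the log2 scale, whereas Tnip2, which encodes ABIN-2, was at 25.6 ± 1.67 and 30.9 ± 1.26 CPM (log2 fold change 0.26, adjusted p = 0.0861, edgeR; called higher with only these 6 libraries and with the length slope, at 0.26 and 0.30). Zc3h12a, the ribonuclease Regnase-1 that degrades inflammatory mRNA, rose by 2.44. Cyld, a deubiquitinase of the same signalling complexes, was at 53.1 ± 3.45 and 56.8 ± 1.43 CPM with overlapping libraries (log2 fold change 0.09, adjusted p = 0.378, edgeR; with total counts it was called lower, at -0.25).

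Of the 9 TRAF and cIAP adaptors and their partners, 8 rose and 1 fell. Malt1, the paracaspase that also cleaves A20, was at 21.9, 26.1 and 25.7 CPM in control and at 411, 414 and 431 CPM in conditioned medium (log2 fold change 4.08, SE 0.09, edgeR adjusted p = 4.1e-13). Traf1 rose from 13.7, 13.9 and 12.4 CPM to 185, 181 and 173 CPM (log2 fold change 3.75, SE 0.10, edgeR adjusted p = 2.6e-12). Birc3, the ubiquitin ligase cIAP2, rose by 2.76, while Birc2, its paralog cIAP1, rose by 0.60. The adaptors Traf2 and Tank rose by 1.52 and 1.44, and Traf6 by 0.36. The pair of TRAF-interacting forkhead proteins went opposite ways. Tifa, which links innate sensing to TRAF6, was at 101, 104 and 99.3 CPM in control and 137, 139 and 127 CPM in conditioned medium (log2 fold change 0.39, SE 0.08, edgeR adjusted p = 0.00083). Tifab, its relative that restrains TRAF6 signalling, fell from 46.1, 44.4 and 44.0 CPM in control to 19.9, 22.0 and 22.9 CPM in conditioned medium (log2 fold change -1.06, SE 0.10, edgeR adjusted p = 6.1e-07). In this fit it was the single gene of the 41 called lower. The rises of Tifa and Traf6, and of Chuk and Ikbkb below, did not pass the test with total counts, where they were 0.06, 0.02, 0.16 and 0.14.

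All 7 kinases and their partners rose, from 0.48 to 2.45 on the log2 scale. Chuk and Ikbkb, the catalytic subunits of the IkB kinase complex, rose by 0.49 and 0.48, and Ikbkg, its regulatory subunit NEMO, by 1.15. Ikbke, the inducible kinase IKK-epsilon, was at 51.4, 51.2 and 57.7 CPM in control and at 288, 281 and 309 CPM in conditioned medium, the largest change of the group (log2 fold change 2.45, SE 0.08, edgeR adjusted p = 1.7e-11). Its paralog Tbk1 rose by 0.70. Ripk2, the kinase below the NOD sensors, rose by 1.57 and Map3k8, the kinase TPL2, by 1.27.

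MyD88 and the IRAK family split. Irak3, which encodes the inhibitory IRAK-M, rose from 25.4, 21.3 and 24.4 CPM to 218, 229 and 243 CPM (log2 fold change 3.27, SE 0.14, edgeR adjusted p = 3.1e-10). Irak2 rose by 2.39 and Myd88, the shared adaptor, by 0.84. The exons of Myd88 overlap those of Acaa1a on the other strand over 11.3% of their length, and such reads cannot be separated in counts without a stated strand. The kinases Irak1 and Irak4, which sit first in the cascade, did not pass the test: Irak1 was at 74.2 ± 2.09 and 78.7 ± 3.99 CPM and Irak4 at 58.0 ± 1.08 and 51.8 ± 1.40 CPM (log2 fold changes 0.08 and -0.17). With total counts both were called lower, at -0.26 and -0.51, and Irak4 also with only these 6 libraries and with the length slope, at -0.17 and -0.21. The remaining targets all rose. Sod2, the mitochondrial superoxide dismutase, went from 113, 115 and 109 CPM to 1740, 1690 and 1600 CPM (log2 fold change 3.89, SE 0.10, edgeR adjusted p = 1.3e-12). Ier3 and Tnfaip2, both inducible by TNF, rose by 2.54 and 2.35.

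**Figure D1:**
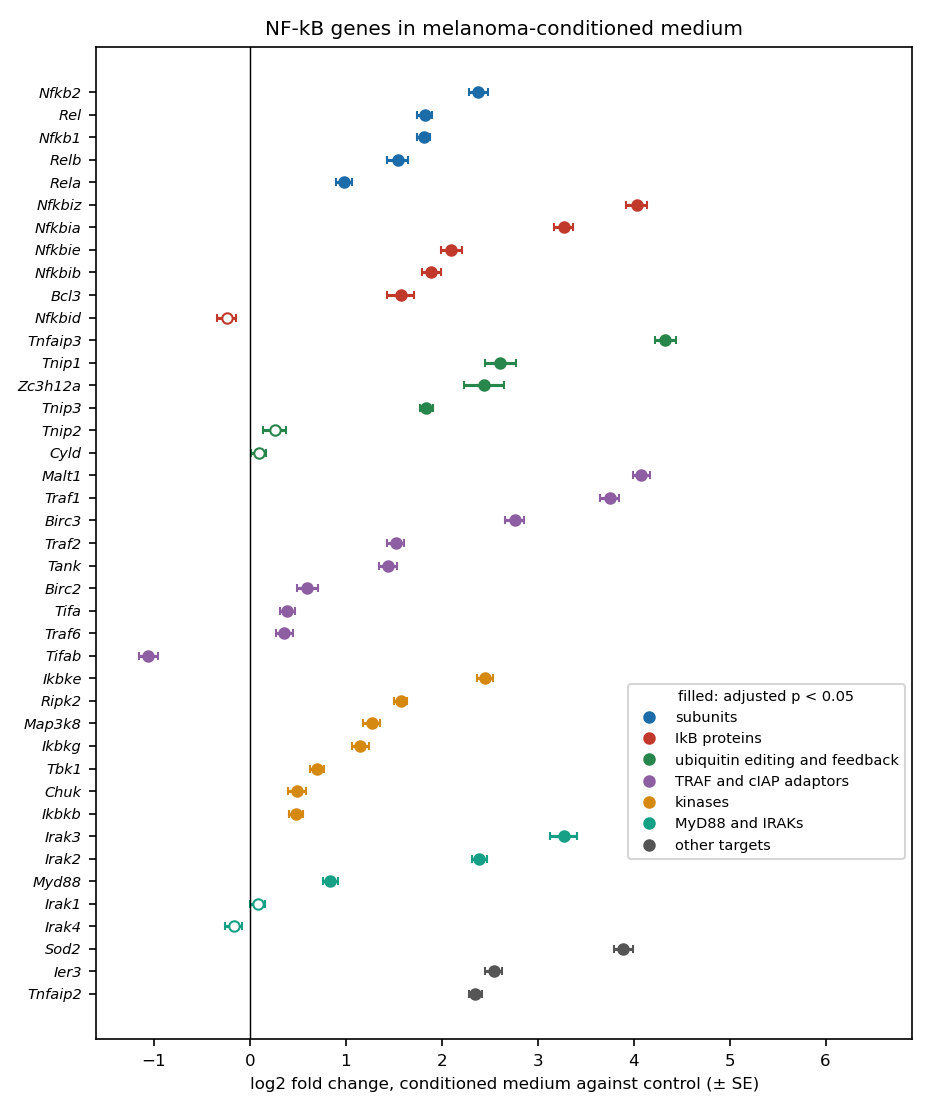
Each row is a gene, the x axis is the log2 fold change of conditioned medium against control, points are estimates coloured by role and bars are ± SE (n = 3 and 3). Filled points passed adjusted p 0.05; Tnfaip3 lies farthest right at 4.33 and Tifab, at -1.06, is the filled point left of 0.

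Per kilobase of exon, which allows levels of different genes to be set side by side, Nfkbia and Tnfaip2 were the most abundant of the 41 in both groups, though in opposite order. These reads per kilobase and CPM were 65.9 ± 3.26 for Tnfaip2 and 58.9 ± 2.79 for Nfkbia in control, and 337 ± 7.83 and 572 ± 14.3 in conditioned medium (SD, n = 3). The lowest in control were Malt1 at 1.36 ± 0.128 and Traf1 at 1.51 ± 0.0938, and both were among the 5 genes with the largest fold changes. In conditioned medium the lowest were Traf6 at 3.57 ± 0.078, Cyld at 4.52 ± 0.114 and Tifab at 6.18 ± 0.441. Among the subunits Rela was the most abundant in control, at 25.6 ± 1.87 against 13.0 ± 0.468 for Nfkb2. In conditioned medium Nfkb2 was at 68.2 ± 1.72 and Rela at 50.8 ± 1.20, an order that turned with no overlap of their SDs. The exons of Nfkb2 overlap those of AC114539.1 and Psd on the other strand over 11.6% and 6.5% of their length, so its counts may hold reads of those genes.

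Of the 34 genes with a promoter window, 13 of the 16 with a kappaB match rose (median log2 fold change 1.97) and 15 of the 18 without one rose (median 1.06), beside 1 that fell. Cyld, Irak1 and Nfkbid carry a match and did not pass the test. Traf1 and Birc3 rose without a match in their windows.

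Other genes of the pathway were read from separate lists. Of 42 further upstream genes 27 rose and 7 fell (median 0.55), and of 25 further targets 22 rose and 1 fell (median 3.54). The 4 with the smallest p among the targets were cytokines and chemokines. Tnf rose from 24.4 ± 1.38 to 2650 ± 30.0 CPM and Il1b from 22.1 ± 2.45 to 3900 ± 198 CPM. Cxcl2 rose from 8.17 ± 1.13 to 4600 ± 226 CPM and Cxcl1 from 2.10 ± 0.188 to 676 ± 32.5 CPM (SD, n = 3 and 3). The receptor Tlr4 fell, with a log2 fold change of -0.44, while the receptor Cd40 rose by 5.97.

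With KCl added to the conditioned medium more of the 41 genes were lower than higher. Against conditioned medium alone 24 were lower, 10 higher and 7 without a call, where 53.9% of all genes tested were called, 27.4% lower and 26.6% higher; with total counts the split was 29 lower and 4 higher. The median log2 fold change was -0.31 over the 41 genes and -0.01 over all genes, and total counts move the latter to -0.22. Libraries did not overlap for 38 of the 41 genes and for 56.7% of all genes. This comparison and that of NaCl below use the same 3 libraries of conditioned medium, which also stand in the comparison with control. The 7 dendritic cell markers summed to 17.4 to 24.8 CPM with KCl and 3.29 to 5.48 CPM in conditioned medium alone. None of them was at 0 throughout. Nearly all of that difference was Xcr1 (17.3 ± 3.32 and 1.38 ± 0.892 CPM). Clec9a and Ccr7 were higher by less, at 0.681 and 1.3 CPM against 0.199 and 1.11 CPM. Zbtb46, Flt3 and Cd209a were lower with KCl, at 1.28, 0.0448 and 0.0297 CPM against 1.7, 0.12 and 0.0626 CPM. Fibroblast markers summed to 311 to 481 CPM with KCl and 504 to 558 CPM in conditioned medium, and the list did not move together. Means of Col1a1, Col1a2 and Col3a1 were lower with KCl, at 84.7, 121 and 44.7 CPM against 162, 185 and 77.5 CPM. Those of Dcn, Lum, Pdgfra and Pdgfrb were higher, at 78.7, 2.09, 12.9 and 25.6 CPM against 62.7, 1.41, 11.1 and 24.7 CPM. The part of these markers in the results was not tested.

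The largest fall was that of Tifab, from 19.9, 22.0 and 22.9 CPM to 0.538, 0.803 and 0.813 CPM, where 8, 9 and 13 reads were counted per KCl library (log2 fold change -4.92, SE 0.16, edgeR adjusted p = 2e-10). Tifab was thus close to undetected with KCl. Tifa fell as well, to 90.0, 95.3 and 79.5 CPM (log2 fold change -0.62, SE 0.08, edgeR adjusted p = 2.7e-05). Ikbke fell from 288, 281 and 309 CPM to 113, 115 and 124 CPM (log2 fold change -1.33, SE 0.08, edgeR adjusted p = 2.6e-08). The IRAK-M gene Irak3 fell from 218, 229 and 243 CPM to 75.7, 86.5 and 117 CPM (log2 fold change -1.31, SE 0.13, edgeR adjusted p = 3.1e-06). Even so, the KCl libraries of both genes stayed above those of control. Tnfaip2 fell from 1660, 1650 and 1720 CPM to 765, 812 and 854 CPM (log2 fold change -1.06, SE 0.07, edgeR adjusted p = 6.6e-08).

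The inhibitors moved in both directions. Bcl3, a nuclear IkB that binds p50 and p52 homodimers, fell from 59.0, 52.9 and 55.4 CPM to 24.0, 22.4 and 34.8 CPM (log2 fold change -1.05, SE 0.14, edgeR adjusted p = 3.3e-05). Nfkbie, which encodes IkB-epsilon, fell from 131, 126 and 127 CPM to 64.6, 61.4 and 81.2 CPM (log2 fold change -0.90, SE 0.11, edgeR adjusted p = 1.4e-05). Nfkbia fell less, from 932, 936 and 894 CPM to 687, 826 and 640 CPM (log2 fold change -0.37, SE 0.09, edgeR adjusted p = 0.00285). Nfkbiz fell by 0.36 on the log2 scale. Nfkbib, which encodes IkB-beta, instead rose from 87.2, 94.3 and 94.7 CPM to 156, 120 and 155 CPM (log2 fold change 0.64, SE 0.10, edgeR adjusted p = 0.00013), and its exons overlap those of Ccer2 on the other strand over 14.5% of their length, which counts without a stated strand cannot separate. Nfkbid rose from 15.9, 15.9 and 15.5 CPM to 22.3, 21.8 and 22.2 CPM (log2 fold change 0.48, SE 0.10, edgeR adjusted p = 0.00139).

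The subunits were split as well. Rela rose from 153, 160 and 156 CPM to 215, 192 and 229 CPM (log2 fold change 0.43, SE 0.08, edgeR adjusted p = 0.00068), and Nfkb1 rose to 396, 417 and 451 CPM (log2 fold change 0.27, SE 0.07, edgeR adjusted p = 0.00645). Nfkb2 and Relb, the pair of the alternative pathway, were lower. Nfkb2 fell from 306, 310 and 322 CPM to 204, 179 and 241 CPM (log2 fold change -0.60, SE 0.10, edgeR adjusted p = 0.00016). Relb was at 68.9, 52.8 and 75.1 CPM with KCl, where the lowest library set the size of the difference (log2 fold change -0.30, SE 0.11, edgeR adjusted p = 0.0339). Without KCl replicate 2 the value for Relb was -0.16 (edgeR adjusted p = 0.0888), and the call was also lost without any 1 library of conditioned medium. Rel was at 123 ± 5.93 against 108 ± 5.40 CPM and did not pass the test (log2 fold change 0.18, adjusted p = 0.0796, edgeR). It was called higher by DESeq2 (adjusted p = 0.0272), with RLE factors and with a replicate block (edgeR adjusted p = 0.0385 and 0.0417). Rel was also called higher without KCl replicate 2 (log2 fold change 0.21, edgeR adjusted p = 0.038) and with the length slope as a covariate (log2 fold change 0.42, edgeR adjusted p = 0.00291). With total counts the rises of Rela and Nfkb1 were 0.22 and 0.06 and no longer passed.

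Ier3, an early-response gene, had the largest rise with KCl, from 159, 153 and 147 CPM to 273, 288 and 237 CPM (log2 fold change 0.79, SE 0.08, edgeR adjusted p = 3.2e-06). Traf6, the ubiquitin ligase between IRAK and the kinases, rose from 28.3, 28.7 and 27.5 CPM to 39.4, 42.6 and 44.4 CPM (log2 fold change 0.57, SE 0.09, edgeR adjusted p = 0.00013). Map3k8 rose from 54.8, 57.5 and 52.9 CPM to 70.1, 83.9 and 78.6 CPM (log2 fold change 0.48, SE 0.08, edgeR adjusted p = 0.00032). In each of these 3 genes the KCl libraries lay above all libraries of conditioned medium. Traf2, Ripk2 and Tbk1 also rose, by 0.39, 0.34 and 0.24. Total counts ended the calls of Traf2, Ripk2, Tbk1 and Nfkbid.

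None of the 6 ubiquitin-editing and feedback genes rose with KCl, and 5 fell. Tnfaip3 went from 408, 416 and 429 CPM to 306, 294 and 373 CPM (log2 fold change -0.38, SE 0.10, edgeR adjusted p = 0.00534). Tnip1, Tnip2, Tnip3 and Zc3h12a had log2 fold changes of -0.54, -0.59, -0.42 and -0.73. With each library's length slope as a covariate the values were -0.08 for Tnfaip3, 0.04 for Tnip1, -0.25 for Tnip2 and 0.08 for Zc3h12a. Those of Nfkb2, Relb and Traf1 were -0.26, -0.01 and -0.20, and none of these values passed the threshold. Slopes of the KCl libraries (-0.09 to 0) did not overlap those of conditioned medium (0.03 to 0.08). Slope and treatment are thus largely confounded in that fit, and the slope comes from the same counts. Tnip1 and Zc3h12a also differed widely between the KCl libraries, at 305 ± 82.5 and 88.3 ± 34.3 CPM (SD, n = 3). Of the 5 MyD88 and IRAK genes 4 fell, where Irak1 had -0.71, Irak2 -0.27 and Irak4 -0.31, the last without a call when conditioned medium replicate 1 was left out (edgeR adjusted p = 0.0516). Birc3, Malt1, Traf1, Ikbkg and Ikbkb were lower as well, with log2 fold changes from -0.82 for Ikbkg to -0.30 for Ikbkb. Sod2 was at 1670 ± 72.6 and 1530 ± 184 CPM and did not pass the test (log2 fold change -0.14), but was called lower with total counts (-0.36, edgeR adjusted p = 9.9e-04) and with the length slope (-0.45, edgeR adjusted p = 6.4e-04). Cyld and Myd88, also without a call, were lower with total counts (-0.40 and -0.34). Cyld was called lower too without KCl replicate 2 (-0.24, edgeR adjusted p = 0.0203) and with the length slope (-0.37, edgeR adjusted p = 0.0215). Myd88 was called lower without KCl replicate 3 (-0.17, edgeR adjusted p = 0.0407). Birc2 (-0.24, no call) was called lower with total counts (-0.46), a replicate block (-0.25), the length slope (-0.59) and without KCl replicate 2 (-0.3). Chuk (-0.01, no call) was called lower with total counts (-0.23).

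**Figure D2:**
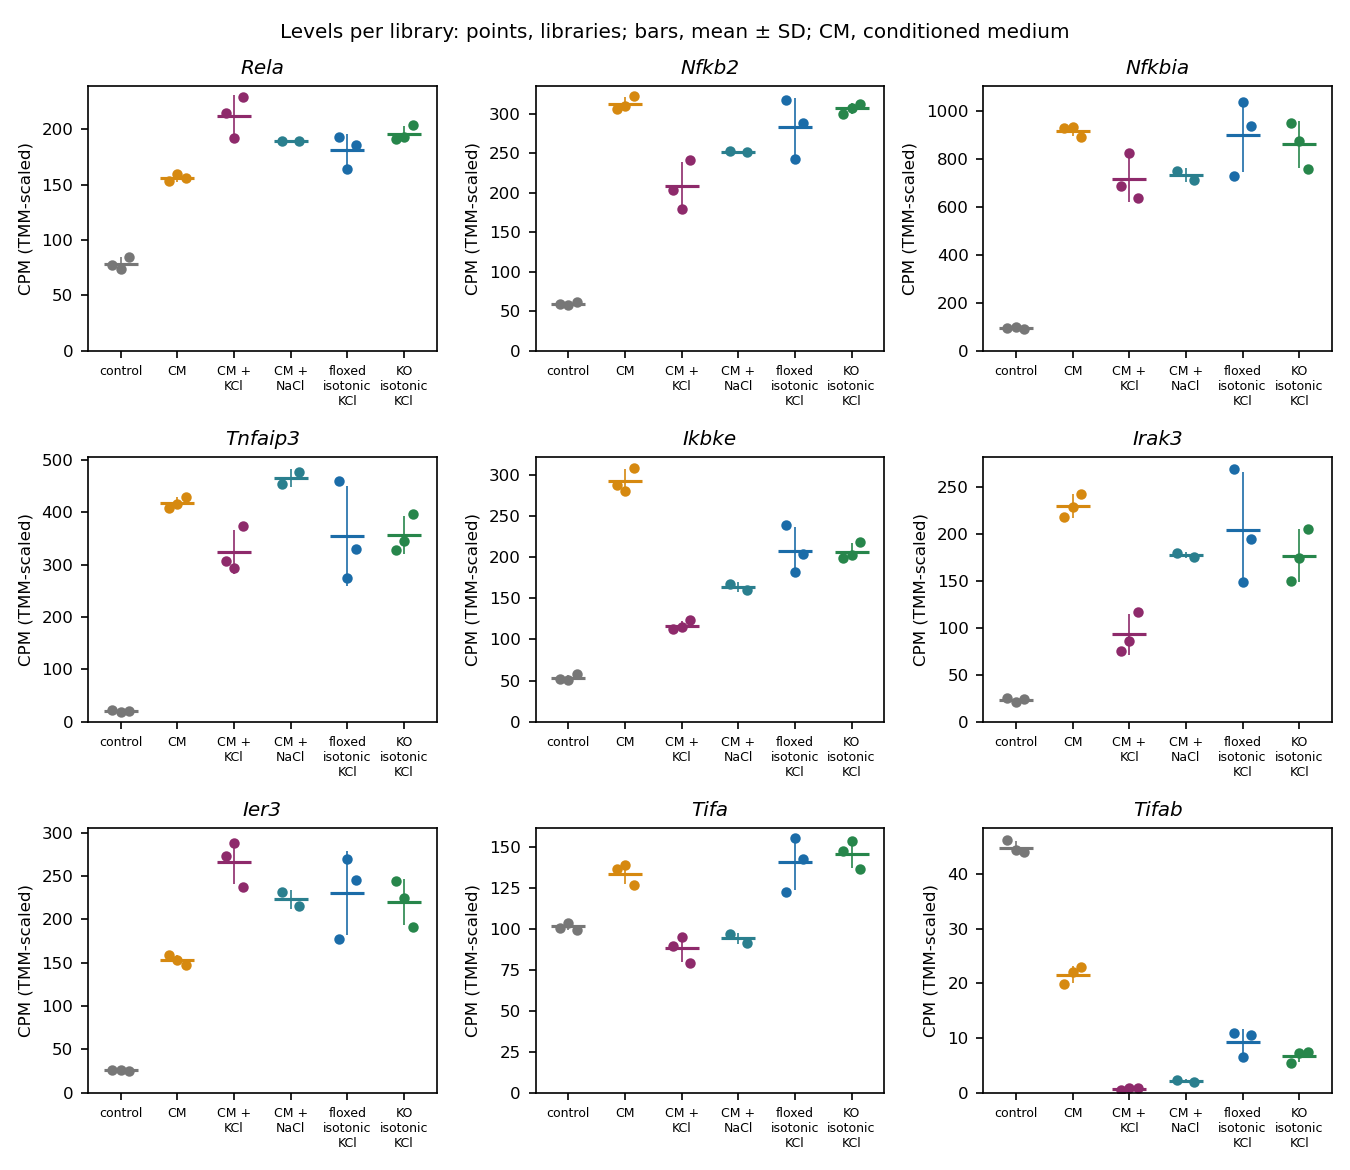
Levels in CPM (TMM-scaled, linear axis from 0) of 9 genes in the 6 groups; points are libraries and bars are the mean ± SD (n = 3, and n = 2 for NaCl). Tifab is highest in control and near 0 with KCl, and Ikbke and Irak3 are lower with KCl than with NaCl or in the isotonic groups.

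Among the 42 other upstream genes 14 rose and 14 fell with KCl (median log2 fold change 0.02), and among the 25 other targets 12 rose and 10 fell (median 0.21). Cd40 fell from 193 ± 6.92 to 50.2 ± 8.11 CPM and Il1b from 3900 ± 198 to 701 ± 8.25 CPM. Tlr4 rose from 53.9 ± 2.59 to 107 ± 4.84 CPM, and Otud7b, a deubiquitinase, from 16.2 ± 0.163 to 37.2 ± 3.89 CPM (SD, n = 3 and 3).

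NaCl at the same concentration serves as the comparison for the effect of added salt as such, since it raises osmolality without adding potassium. Of the 41 genes 14 were lower, 8 higher and 19 without a call against conditioned medium alone, where 28.7% of all genes tested were called, 14.9% lower and 13.7% higher. The median log2 fold change was -0.11 over the 41 genes and -0.01 over all genes. Libraries did not overlap for 34 of the 41 genes and for 60.7% of all genes. The dendritic cell markers summed to 8.24 to 9.59 CPM with NaCl and 3.29 to 5.48 CPM in conditioned medium. Most of that difference was Xcr1 (4.61 ± 1.26 and 1.38 ± 0.892 CPM), and Cd209a was lower with NaCl. The melanoma markers summed to 225 to 237 and 179 to 185 CPM, again nearly all Mitf. What part the markers of both lists had in the results was not tested. With 2 NaCl libraries the calls rest on few samples, and a fit without either of them keeps 1 NaCl library. In each such fit fewer of the 41 were called, as was so for all genes.

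Tifab had the largest fall here too, to 2.36 and 2 CPM (log2 fold change -3.29, SE 0.15, edgeR adjusted p = 9e-09). Ikbke fell to 168 and 160 CPM (log2 fold change -0.83, SE 0.09, edgeR adjusted p = 1.6e-05), and Bcl3 to 33.7 and 34.4 CPM (log2 fold change -0.70, SE 0.15, edgeR adjusted p = 0.00374). All 3 were lower in both NaCl libraries than in any library of conditioned medium. Tnfaip2 fell to 1060 and 1060 CPM (log2 fold change -0.65, SE 0.08, edgeR adjusted p = 4.4e-05). Tifa, at 96.9 and 91.8 CPM, fell below its control libraries as well (log2 fold change -0.50, SE 0.09, edgeR adjusted p = 0.00095). Tnip2 was at 18.6 and 22.4 CPM (log2 fold change -0.59, SE 0.14, edgeR adjusted p = 0.00662), a call that was lost without NaCl replicate 1 (log2 fold change -0.45, edgeR adjusted p = 0.109).

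Of the genes that rose with NaCl, Nfkbid was at 25.3 and 25.5 CPM against 15.9, 15.9 and 15.5 CPM in conditioned medium (log2 fold change 0.70, SE 0.11, edgeR adjusted p = 0.00038). Traf6 was at 41.4 and 43.0 CPM (log2 fold change 0.59, SE 0.10, edgeR adjusted p = 0.00055) and Ier3 at 231 and 215 CPM (log2 fold change 0.55, SE 0.09, edgeR adjusted p = 0.0004). These 3 regulators and targets had NaCl libraries above every library of conditioned medium. Nfkb1 rose to 455 and 485 CPM (log2 fold change 0.44, SE 0.08, edgeR adjusted p = 0.00097). Nfkbib, at 126 and 126 CPM, and Map3k8, at 70.0 and 69.5 CPM, had log2 fold changes of 0.46 and 0.35. Without NaCl replicate 2 both calls were lost (edgeR adjusted p = 0.0637 and 0.0863), and that of Map3k8 also without NaCl replicate 1 (edgeR adjusted p = 0.0738).

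Several feedback genes did not pass the test with NaCl. Tnfaip3 was at 453 and 477 CPM against 418 ± 10.7 CPM, where the log2 fold change of 0.16 did not pass the test (adjusted p = 0.305, edgeR), though with only these 5 libraries in the fit it was called higher (0.17, edgeR adjusted p = 0.0102). Tnip1 was at 433 ± 2.68 against 442 ± 16.5 CPM and Zc3h12a at 144 ± 0.845 against 146 ± 10.3 CPM, both with a log2 fold change of -0.02. Irak3, at 180 and 176 CPM, had a log2 fold change of -0.36 (adjusted p = 0.0784, edgeR) and was called lower with no low-count filter (-0.37, edgeR adjusted p = 0.0107) and with only these 5 libraries (-0.36, edgeR adjusted p = 2.6e-05). The other subunits moved little: Rela had 0.28 and Nfkb2 -0.30 (edgeR adjusted p = 0.0346 and 0.0497), and both calls were lost on leaving out any 1 library of either group. Rel and Relb had 0.24 and -0.09 without a call (adjusted p = 0.0597 and 0.623, edgeR). Rel was called higher in 6 alternatives, with log2 fold changes from 0.18 with the length slope to 0.28, among them DESeq2 (adjusted p = 0.0274) and the fit of only these 5 libraries (edgeR adjusted p = 0.00382). Nfkbia was at 753 and 714 CPM (log2 fold change -0.32, SE 0.10, edgeR adjusted p = 0.0255), a call lost without either NaCl library or without conditioned medium replicate 1 or 2. Sod2, Birc3, Tnip3, Ikbkg, Irak1 and Irak4 were lower, with log2 fold changes from -0.41 for Birc3 to -0.29 for Ikbkg, and Tbk1 was higher at 0.28. The calls of these 7 genes were each lost without either NaCl library. Among the other upstream genes 11 rose and 7 fell, and among the other targets 6 rose and 7 fell; Tlr4 rose by 1.29, and Il1b fell to 1800 ± 154 CPM.

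**Figure D3:**
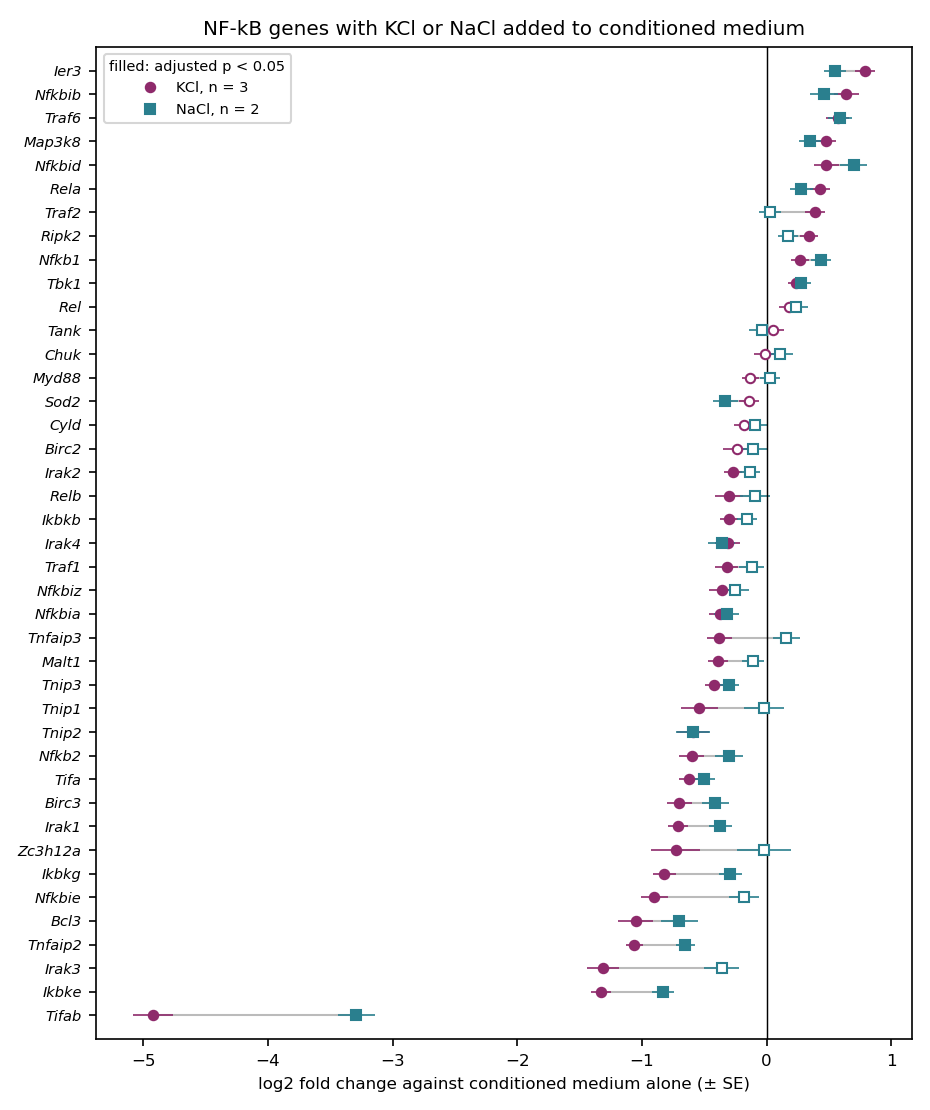
Log2 fold changes against conditioned medium alone (x axis, ± SE) for each gene (rows, in order of the KCl value), with KCl as circles (n = 3) and NaCl as squares (n = 2); filled symbols passed adjusted p 0.05. Both salts share the 3 libraries of conditioned medium, and Tifab lies apart at -4.92 and -3.29.

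The direct comparison of KCl with NaCl tests the difference between the salts. With KCl, 12 of the 41 genes were lower than with NaCl, 1 was higher and 28 had no call, where 31.6% of all genes tested were called, 16.2% lower and 15.4% higher. The share called is close to that of all genes. The median log2 fold change was -0.14 over the 41 genes and -0.04 over all genes. None of these calls was made in every alternative run. With only these 5 libraries in the fit none of the 41 passed, where 0.0598% of all genes did. With the length slope as a covariate Tifab alone passed, where 1.39% of all genes did. Without KCl replicates 1, 2 and 3 in turn the number called was 8, 15 and 21. Of all genes these fits called 20.9%, 27% and 48.3%. Fits without a NaCl library keep 1 in that group, and called fewer of the 41 and of all genes.

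Tifab was at 0.718 ± 0.156 CPM with KCl and 2.18 ± 0.252 CPM with NaCl (log2 fold change -1.62, SE 0.22, edgeR adjusted p = 0.00073). Irak3 was at 75.7, 86.5 and 117 CPM with KCl and at 180 and 176 CPM with NaCl (log2 fold change -0.95, SE 0.14, edgeR adjusted p = 0.00114). Nfkbie was at 64.6, 61.4 and 81.2 CPM against 112 and 113 CPM (log2 fold change -0.72, SE 0.12, edgeR adjusted p = 0.00175). For these 3 genes the libraries of the salts did not overlap, as was so for 24 of the 41 genes and 51.1% of all genes. Tnfaip3 was at 306, 294 and 373 CPM against 453 and 477 CPM (log2 fold change -0.54, SE 0.11, edgeR adjusted p = 0.00405), and Ikbkg at 59.7, 55.8 and 69.9 CPM against 88.3 and 87.6 CPM (log2 fold change -0.52, SE 0.09, edgeR adjusted p = 0.00244). The log2 fold changes of Tnip1 and Zc3h12a were -0.52 and -0.71 (edgeR adjusted p = 0.0294 and 0.0315). With the length slope as a covariate they were 0.21 and 0.30, and that of Nfkb2 was 0.13 in place of -0.29. Those of Irak3, Nfkbie and Tnfaip3 were -0.39, -0.35 and -0.16 in that fit. None of these values passed the threshold. Slopes of the KCl libraries (-0.09 to 0) did not overlap those of NaCl (0.06 to 0.1), so slope and salt are largely confounded there.

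Ikbke, Tnfaip2, Irak1 and Malt1 were also lower with KCl, with log2 fold changes from -0.50 for Ikbke to -0.27 for Malt1. Traf2, the adaptor of TNF receptors, was the gene that was higher, at 90.8, 90.0 and 80.6 CPM with KCl against 64.7 and 69.1 CPM with NaCl (log2 fold change 0.36, SE 0.09, edgeR adjusted p = 0.0127). That call was lost with total counts and without either NaCl library, as was that of Tnfaip3 without NaCl replicate 2 (log2 fold change -0.50, edgeR adjusted p = 0.0582). The calls of Nfkb2, Tnip1, Zc3h12a, Malt1 and Irak1 were each lost without KCl replicate 1 and without either NaCl library. Among the other subunits no difference passed the test: the 95% interval of the log2 fold change was -0.05 to 0.35 for Rela, -0.26 to 0.13 for Rel, -0.47 to 0.06 for Relb and -0.35 to 0 for Nfkb1. Without KCl replicate 3 Nfkb1 and Relb were called lower (-0.23 and -0.31, edgeR adjusted p = 0.00983 and 0.0162), and without KCl replicate 2 Rela was called higher (0.22, edgeR adjusted p = 0.0486). With total counts Nfkb1 and Tifa were called lower (-0.32 and -0.26). For Nfkbia it was -0.26 to 0.16 and for Tifa -0.31 to 0.08. Of the other upstream genes 6 were higher and 11 lower with KCl, and of the other targets 8 were higher and 6 lower. Il1b was at 701 ± 8.25 against 1800 ± 154 CPM and Otulin, the deubiquitinase of linear chains, at 244 ± 31.5 against 135 ± 6.59 CPM.

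The floxed cells in isotonic KCl were set beside the C57BL/6J groups as measured differences, because their strain and their treatment cannot be told apart. Against conditioned medium alone 8 of the 41 genes were higher, 5 lower and 28 without a call. Of all 14676 genes tested 15.3% were called, 8.2% higher and 7.09% lower. With total counts 2 of the 41 were higher and 11 lower, and of all calls in that fit 26.1% were higher, against 53.6% with TMM factors. The median log2 fold change was -0.03 over the 41 genes and -0.01 over all genes, and total counts move the latter to -0.18. Libraries did not overlap for 19 of the 41 genes and 29.3% of all genes. Tifab fell from 21.6 ± 1.54 to 10.9, 6.54 and 10.5 CPM (log2 fold change -1.21, SE 0.17, edgeR adjusted p = 0.00026), the single one of the 13 calls made in every alternative run. Tnip2 and Bcl3 fell to 19.0 ± 3.43 and 38.0 ± 9.12 CPM, and Ikbke was lower, at 208 ± 28.6 CPM against 293 ± 14.4 CPM (log2 fold change -0.49, SE 0.10, edgeR adjusted p = 0.00352). Tnip3 was called lower at -0.22. Ier3, Tank and Malt1 had the largest rises, of 0.59, 0.47 and 0.40, followed by Nfkbib, Ripk2, Map3k8, Traf2 and Tbk1.

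No subunit passed the test between these groups, with log2 fold changes from -0.15 for Nfkb2 to 0.21 for Rela, which DESeq2 called higher (adjusted p = 0.0444). With the length slope Rela and Nfkb1 were called higher (0.31 and 0.35) and Nfkbia lower (-0.27, edgeR adjusted p = 0.00122). Nfkbia was at 732, 1040 and 938 CPM in the floxed cells, a range that holds all libraries of conditioned medium (log2 fold change -0.03), and Tnfaip3 at 460, 275 and 329 CPM (log2 fold change -0.24, adjusted p = 0.291, edgeR). Tifa was at 123, 156 and 143 CPM (log2 fold change 0.07). The floxed libraries differed widely, and without floxed replicate 1 the log2 fold change of Tnfaip3 was -0.47 and that of Tnip1 -0.56, both past the threshold. Without any 1 library of conditioned medium the calls of Nfkbib, Bcl3, Tnip3, Traf2 and Tbk1 were lost. The number called was 13 in all, 7 without conditioned medium replicate 1 or 3, 8 without replicate 2, and 19 without floxed replicate 1. Of all genes, 8.51%, 7.82% and 7.38% were called without conditioned medium replicates 1, 2 and 3. Without floxed replicate 1 the share was 38.2%, against 15.3% with every library. Of the other targets 13 were higher and 1 lower, and Plau, the gene with the smallest p of the list, was at 89.3 ± 3.85 against 36.8 ± 3.12 CPM, and of the other upstream genes 10 were higher and 1 lower.

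KCl as added to the C57BL/6J cells was likewise set against isotonic KCl in the floxed cells. Here 17 of the 41 genes were lower with KCl, 2 were higher and 22 had no call, where 27.8% of all genes tested were called, 15.4% lower and 12.3% higher. With total counts the split was 18 lower and 0 higher, and of all calls in that fit 37.8% were higher, against 44.5% with TMM factors. The median log2 fold change was -0.20 over the 41 genes and 0 over all genes, and libraries did not overlap for 20 of the 41 genes and 30.4% of all genes. Tifab was at 0.718 ± 0.156 against 9.29 ± 2.39 CPM (log2 fold change -3.70, SE 0.24, edgeR adjusted p = 5.8e-08). Irak3 was at 75.7, 86.5 and 117 CPM against 270, 149 and 195 CPM (log2 fold change -1.13, SE 0.19, edgeR adjusted p = 0.0004). Both had no overlap between the groups. Ikbkg was at 61.8 ± 7.31 against 120 ± 20.4 CPM (log2 fold change -0.96, SE 0.11, edgeR adjusted p = 1.2e-05), Ikbke at 117 ± 6.09 against 208 ± 28.6 CPM (log2 fold change -0.83) and Tnfaip2 at 810 ± 44.3 against 1410 ± 145 CPM (log2 fold change -0.80). Malt1 and Tifa were lower by log2 fold changes of -0.78 and -0.67. These 7 calls were made in every alternative run. The other lower genes ran from -0.60 for Birc3 to -0.27 for Ikbkb. Traf6 and Nfkbib, at 0.38 and 0.31, were the 2 higher genes, and both calls ended with total counts. Among the subunits Nfkb2 was lower (log2 fold change -0.44, SE 0.11, edgeR adjusted p = 0.00573), and Rela, Rel, Relb and Nfkb1 had 0.23, 0.26, -0.18 and 0.13 without a call. Without floxed replicate 1 Rela, Rel and Nfkb1 were called higher, at 0.28, 0.39 and 0.30 (edgeR adjusted p = 0.0316, 0.00247 and 0.0444), as they were with the length slope (0.24, 0.29 and 0.17). DESeq2 called Rela and Rel higher (adjusted p = 0.0206 and 0.0274), RLE factors and the stricter filter Rel, and the fit without KCl replicate 2 Rela (0.31). Nfkbia was at 687, 826 and 640 CPM with KCl against 732, 1040 and 938 CPM, with overlapping libraries (log2 fold change -0.33, SE 0.12, adjusted p = 0.0604, edgeR). It was called lower with total counts or no low-count filter (-0.38 in each), with the length slope (-0.35), without KCl replicate 2 (-0.43, edgeR adjusted p = 0.0263) and without floxed replicate 1 (-0.46, edgeR adjusted p = 0.00443). Tnfaip3 was at 306, 294 and 373 CPM against 460, 275 and 329 CPM (log2 fold change -0.13, SE 0.15, adjusted p = 0.581, edgeR). Of the other targets 10 were lower and 0 higher, and of the other upstream genes 9 were lower and 7 higher. None of the 6 ubiquitin-editing and feedback genes passed the test, with log2 fold changes from -0.41 for Zc3h12a to 0.12 for Tnip2. Zc3h12a was called lower without KCl replicate 3 (-0.75, edgeR adjusted p = 0.0499) and Cyld without KCl replicate 2 (-0.25, edgeR adjusted p = 0.0387), and DESeq2 called Tnip3 lower (-0.17, adjusted p = 0.0248). The length slope made calls for Tnip3 and Cyld (-0.18 and -0.20).

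Loss of Kcnj2 was tested within isotonic KCl. Kcnj2, the gene of the potassium channel Kir2.1, was at 173, 139 and 147 CPM in floxed and at 19.7, 24.4 and 29.4 CPM in knockout libraries (log2 fold change -2.64, SE 0.19, edgeR adjusted p = 0.015). Lyz2, the locus that carries Cre, was at 22500 ± 2390 and 7650 ± 638 CPM. Fibroblast markers summed to 254 to 507 CPM in floxed and 179 to 246 CPM in knockout libraries. Each of the 7 had a lower mean in the knockout. Col1a1 was at 87.4 ± 65 and 42.8 ± 20.5 CPM, and Col1a2 at 116 ± 51.8 and 59 ± 13.2 CPM. The part of Lyz2 and of these markers in the results was not tested. Of the 41 genes 0 were called by edgeR, where 0.0156% of the 12782 genes tested were called (0.00782% higher and 0.00782% lower). In that fit 0 of the 41 had an unadjusted p under 0.05. DESeq2 called 0 of the 41, with 1 unadjusted p under 0.05, where it called 1.38% of all genes. Libraries did not overlap for 5 of the 41 genes, against 11.2% of all genes. The log2 fold changes ran from -0.46 for Tifab to 0.14 for Traf1, with a median of 0. Of the 95% intervals 40 of 41 lay within 1 and 33 within 0.5 of 0 on the log2 scale, with a median half-width of 0.31. A change of 2-fold or more thus lay outside the interval for each gene but Tifab.

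No subunit passed the test between the genotypes. Rela was at 193, 164 and 186 CPM in floxed and at 191, 193 and 204 CPM in knockout cells (log2 fold change 0.12, 95% interval -0.15 to 0.39). Nfkb1 was at 474, 298 and 387 CPM and at 339, 343 and 402 CPM (log2 fold change -0.09, 95% interval -0.53 to 0.35). The knockout libraries of Nfkb1 lay inside the floxed range, and 1 of Rela lay above it. Nfkb2, Rel and Relb had log2 fold changes of 0.12, -0.10 and 0. Nfkbia was at 732, 1040 and 938 CPM in floxed and at 952, 878 and 759 CPM in knockout cells (log2 fold change -0.06, 95% interval -0.46 to 0.34). Tnfaip3 was at 460, 275 and 329 CPM and at 328, 345 and 397 CPM (log2 fold change 0.02, 95% interval -0.46 to 0.49). The knockout libraries of both feedback genes lay inside the floxed range.

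Tifa had a log2 fold change of 0.06 (95% interval -0.25 to 0.36). Tifab was at 10.9, 6.54 and 10.5 CPM in floxed and at 5.35, 7.31 and 7.52 CPM in knockout cells, with overlapping libraries (log2 fold change -0.46, 95% interval -1.06 to 0.14). The widest interval of the 41 was that of Zc3h12a, -0.74 to 0.79, whose libraries ran from 75.1 to 169 CPM in floxed and from 87 to 149 CPM in knockout cells. Once the length slope entered the fit, 5 of the 41 genes passed the threshold, where that fit called 9.17% of all genes tested. Nfkb2 at 0.18, Tnfaip3 at 0.17 and Tnip1 at 0.28 were higher in knockout cells, and Nfkbiz at -0.22 and Birc3 at -0.26 lower. Of the 42 other upstream genes and the 25 other targets none was called either; the smallest p values of each list were those of Il1r1 (log2 fold change -0.87) and Cxcl10 (-0.75).

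**Figure D4:**
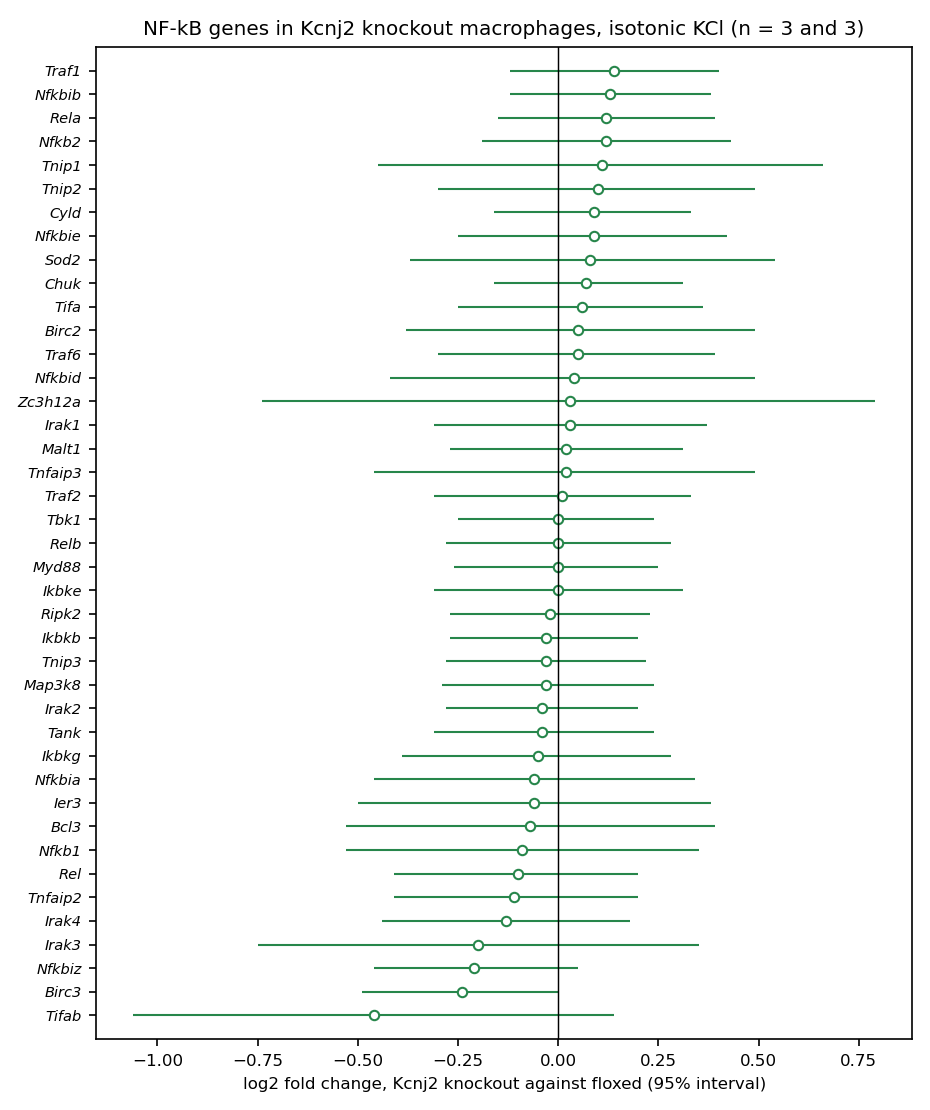
Log2 fold change of knockout against floxed cells in isotonic KCl (x axis) for each gene (rows, in order of value); points are estimates and bars are 95% intervals (n = 3 and 3). No gene passed adjusted p 0.05, and the interval of Tifab, from -1.06 to 0.14, is the one that reaches past 1.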

How the data were processed

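Raw counts of 17 libraries were read from the deposited table as the authors made it, with Ensembl gene identifiers as rows. No aligner, counter, genome build or strand setting is given in the sources used here. Per the submitters' processing notes DESeq2 1.30.1 was used, for a step that is not stated. Of 55401 identifiers 28418 were at 0 in every library, and 260 without a symbol held 0.0121% of the counts. Symbols, exon lengths and overlaps came from GENCODE M21 on GRCm38, promoter windows from RefSeq on GRCm38.p6.

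Counts were tested with edgeR 4.0.16 in R 4.3.3 (robust quasi-likelihood fit, default filter on low counts, TMM factors), after a test on simulated data. The 11 C57BL/6J libraries were fitted together, the 6 isotonic libraries alone, and all 17 for the comparisons across strains. A fit shares 1 spread per gene over its groups, and the larger spread of the KCl libraries may be understated in it. P-values were adjusted by Benjamini-Hochberg over every gene tested, with a threshold of 0.05, and the test is 2-sided. SE and 95% intervals are those of the log2 fold change. Intervals cover the spread between libraries. Every pair of replicates differed by more than sampling noise (chi-square over its degrees of freedom 2.05 to 133), and no libraries were merged. That difference does not show whether replicates are separate mice or cultures.

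The 41 genes, the lists of other pathway genes and the markers were chosen with earlier results of these data known. Named in each comparison, some by log2 fold change only, are the 5 subunits, Nfkbia, Tnfaip3, Tifa and Tifab. The 6 highest and 6 lowest fold changes past the threshold with at least 10 CPM in a group are named too. Other pathway genes are named by smallest p, up to 4. Tlr4 in conditioned medium, Cd40, Irak3 with NaCl and the feedback genes described without a call were named after their values were seen. Alternatives were DESeq2 1.42.0, RLE factors, total counts, no or a stricter low-count filter (a mean of 20 counts, and 1 CPM in 3 libraries), a replicate block, other sets of libraries in the fit, the length slope as a covariate and leaving out each library.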

Additional observations from a re-analysis of the deposited data

How the results depend on the processing

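Alternatives left the count of the 41 genes called within 1.5 times for conditioned medium against control (36 to 39) and for KCl against conditioned medium (31 to 36). Of the calls, 32 of 36 and 20 of 34 were made in every alternative, as were 9 of 22 for NaCl, 0 of 13 for KCl against NaCl, 1 of 13 for floxed isotonic KCl against conditioned medium and 7 of 19 for KCl against floxed isotonic KCl. Leaving out single libraries gave 10 to 19 calls for NaCl against conditioned medium, 6 to 21 for KCl against NaCl, 7 to 19 for floxed isotonic KCl against conditioned medium and 13 to 22 for KCl against floxed isotonic KCl. For KCl against NaCl, 22 were called with total counts and 0 with only the 2 groups in the fit. With all 17 libraries 7 were called, and with the length slope as a covariate 1. Of all genes these fits called, in the same order, 34.9%, 0.0598%, 8.85% and 1.39%. For floxed isotonic KCl against conditioned medium, 7 were called without a low-count filter, where 6.2% of all genes were. With only the 2 groups in the fit 1 was called there, where 3.17% of all genes were, and 7 for KCl against floxed isotonic KCl. The knockout comparison had 5 calls with the length slope as a covariate, where 9.17% of all genes were called. Log2 fold changes reversed with total counts for Cyld (-0.25) and Irak1 (-0.26) in conditioned medium against control, and with the length slope for Tnip1 (0.04) and Zc3h12a (0.08) in KCl against conditioned medium and for Nfkb2 (0.13), Tnip1 (0.21) and Zc3h12a (0.30) in KCl against NaCl. The cause was not tested, and in both of these KCl comparisons the length slope differed between the groups without overlap. Of 3133 single-gene values under an alternative, 222 lost a call, 131 gained one with the direction kept, and the 7 named above reversed. Those 3133 values are of genes named, called or changed in a comparison. Counted over all 41 genes instead, 170 values changed sign where neither fit made a call and so carry no direction. Residuals of same-numbered libraries correlated above 0.1 in 4 of 15 pairs of the C57BL/6J groups, against 3 of 30 pairs with different numbers. In the isotonic groups the counts were 1 of 3 and 3 of 6. Among control, conditioned medium and KCl, same-numbered pairs ran from 0.04 to 0.3. Residuals of the 2 NaCl libraries mirror each other by construction. These values do not settle whether equal numbers are pairs, and the main fits took no pairs. With the replicate block 36 genes were called in conditioned medium against control, 36 with KCl and 23 with NaCl against conditioned medium, 18 for KCl against NaCl, 0 in the knockout, and 11 and 21 in the comparisons of floxed isotonic KCl with conditioned medium and with KCl. Depth limits Tifab most, at 8 to 13 counts per KCl library.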
